A study of Homo sapiens with 8 samples.

Results

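The HOX genes encode homeodomain transcription factors that assign positional identity along the body axis of the embryo. In humans they lie in 4 clusters, HOXA, HOXB, HOXC and HOXD, and genes at corresponding places in different clusters form paralog groups numbered 1 to 13. Low numbers lie at the 3′ end of each cluster and are used in the anterior body, while high numbers lie at the 5′ end and are used in the posterior body and the limbs. Polycomb proteins keep the genes silent, MLL and trithorax proteins keep them active, and the resulting pattern is commonly retained in cultured cells as a record of their origin. The genes were found by Entrez identifier, as protein-coding genes named HOX, a cluster letter and a number. Of 18478 genes listed in the deposited table, 38 met this rule, with 11 in HOXA and 9 each in HOXB, HOXC and HOXD. HOXB1, the remaining one of the 39 HOX genes of the reference annotation, was not analysed here.

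RNA-seq libraries came from C8161 and A2058, established human melanoma lines, each either transduced with a retrovirus carrying ATF3 or transduced as a neomycin control. ATF3 is a stress-induced transcription factor of the ATF/CREB family. Culture medium was the same for every group, DMEM plus 10% fetal bovine serum and antibiotics, and total RNA was sequenced. The labels give 3 libraries for C8161 with ATF3, 3 for the C8161 control, 1 for A2058 with ATF3 and 1 for the A2058 control. The table gives 1 value per gene and group in RPKM, reads scaled to transcript length and library size, so the C8161 values are the authors' combined values over 3 libraries. No replicate spread exists for any comparison, no test was possible, and every difference is a description of these 4 columns. The labels do not say whether the cells were cloned, how many transductions were made or which promoter drove ATF3.

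ATF3 itself was at 62.6 RPKM in C8161 with ATF3 against 4.76 RPKM in the C8161 control, and at 4.71 RPKM in A2058 with ATF3 against 1.22 RPKM in the A2058 control. Whole-read steps among low A2058 values give an approximate depth of 17700000 reads for the library with ATF3 and of 18100000 for its control; a single read over 1 kb then equals 0.0565 RPKM with ATF3 and 0.0553 RPKM in the control. No such step was found for C8161, and its depth is unknown. The melanoma label was checked against 8 melanocyte and melanoma markers. All 8 were at 1 RPKM or more in both A2058 columns, among them SOX10 at 252.8 RPKM with ATF3 and 253.8 RPKM in the control. In C8161, 1 of 8 reached 1 RPKM with ATF3 and 0 of 8 in the control. MITF was at 1.02 RPKM with ATF3 and 0.95 RPKM in the control there, SOX10 at 0.05 and 0.06 RPKM, PMEL at 0.13 and 0.18 RPKM, and TYR was listed at 0 in both. The summed list came to 1.74 RPKM in C8161 with ATF3 and 1.60 RPKM in the C8161 control, against 1547 RPKM in A2058 with ATF3 and 1510.0 RPKM in the A2058 control. The melanocyte markers thus differ between the lines together with the HOX genes described below, and their part in the HOX differences was not tested.

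Most HOX genes were detected in both lines, and more of them in A2058. At 1 RPKM or more there were 24 of 38 in C8161 with ATF3 (63.2%) and 25 in the C8161 control (65.8%), against 33 in A2058 with ATF3 (86.8%) and 34 in the A2058 control (89.5%). Over all listed genes these shares were 58.8% in each C8161 column, 63.6% in A2058 with ATF3 and 63.5% in the A2058 control. The median HOX level was 1.58 RPKM in C8161 with ATF3 and 1.49 RPKM in the C8161 control, against 5.88 RPKM in A2058 with ATF3 and 5.25 RPKM in the A2058 control. The median over all genes was 2.81, 2.77, 4.11 and 4.13 RPKM in the same columns. The median HOX level was therefore below that of all genes in C8161 and above it in A2058. In such bulk samples, fewer cells that express a gene and less RNA per cell cannot be told apart.

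By detection in the neomycin controls, the 38 genes fall into 4 sets. At 1 RPKM or more in both controls were 23 genes, 60.5% of the HOX genes, beside 55.4% of all genes. Detected at that level in the A2058 control alone were 11 genes, 28.9% beside 8.14% of all genes. These were HOXA4, HOXA11, HOXA13, HOXB13, all of HOXC9 to HOXC13, HOXD10 and HOXD11, so 10 of the 11 belong to paralog groups 9 to 13. Those groups hold 16 of the 38 genes. HOXA7 and HOXD1 reached 1 RPKM in the C8161 control alone, 5.26% of the HOX genes beside 3.4% of all genes. HOXA9 and HOXD12 reached it in neither control, 5.26% beside 33.0% of all genes. The 11 genes of the A2058 set had medians of 0.06 RPKM in each C8161 column, against 5.95 RPKM in A2058 with ATF3 and 5.09 RPKM in the A2058 control.

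**Figure D1:**
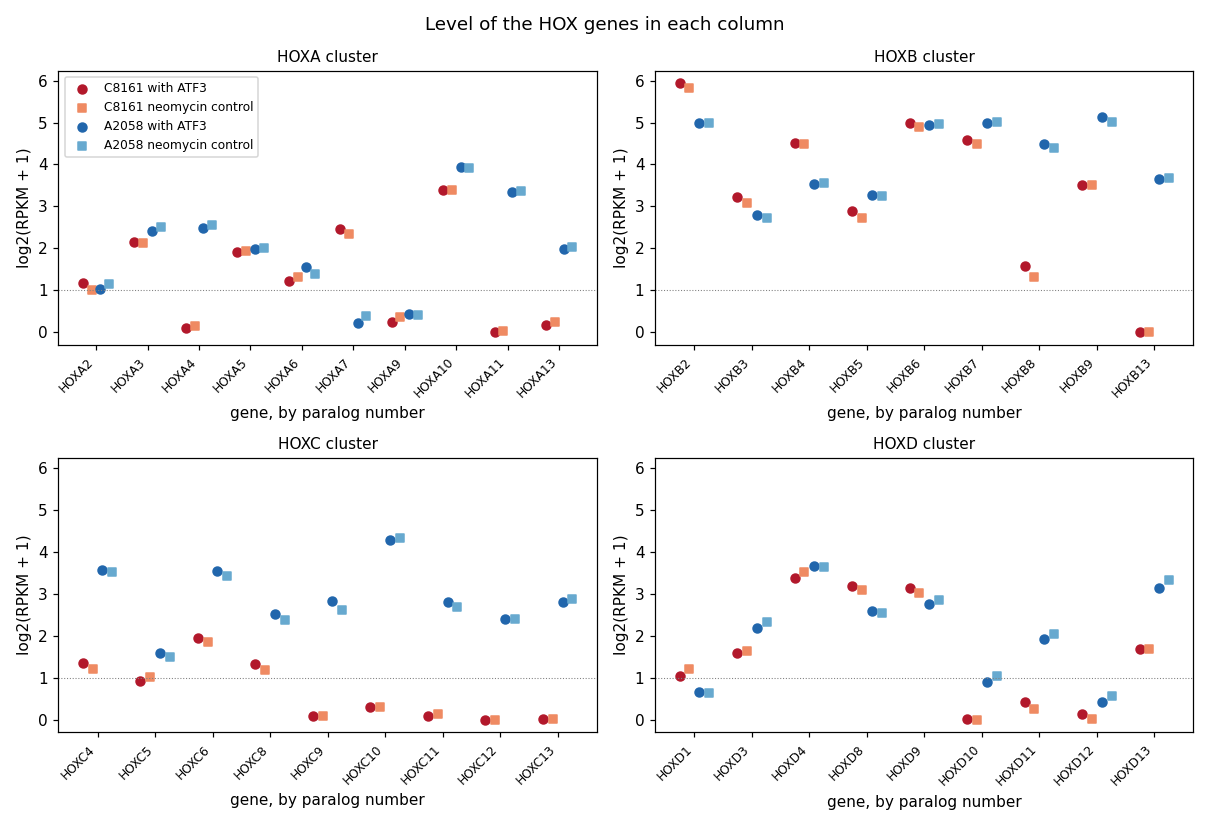
Level of the HOX genes reported singly, on the log2(RPKM + 1) scale in the 4 columns, 1 point per column, ordered by paralog number within each cluster, with a dotted line at 1 RPKM. The C8161 points of HOXC9 to HOXC13 lie near 0 while the A2058 points lie between 4.26 and 19.3 RPKM, whereas HOXA7 has the opposite order.

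HOXB was the most abundant cluster in every column. Its 9 genes summed to 162.6 RPKM in C8161 with ATF3 and 151.8 RPKM in the C8161 control, against 183.7 RPKM in A2058 with ATF3 and 179.8 RPKM in the A2058 control. HOXA summed to 24.6 RPKM in each C8161 column against 45.3 RPKM in A2058 with ATF3 and 45.4 RPKM in the A2058 control. HOXD summed to 30.9 RPKM in each C8161 column, against 38.4 RPKM in A2058 with ATF3 and 40.8 RPKM in the A2058 control. HOXC stood out between the lines. Its sum was 7.20 RPKM in C8161 with ATF3 against 69.2 RPKM in A2058 with ATF3, and 6.63 RPKM in the C8161 control against 66.7 RPKM in the A2058 control. These sums were 9.61-fold higher in A2058 with ATF3 and 10.1-fold higher in the A2058 control than in the matching C8161 column.

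**Figure D2:**
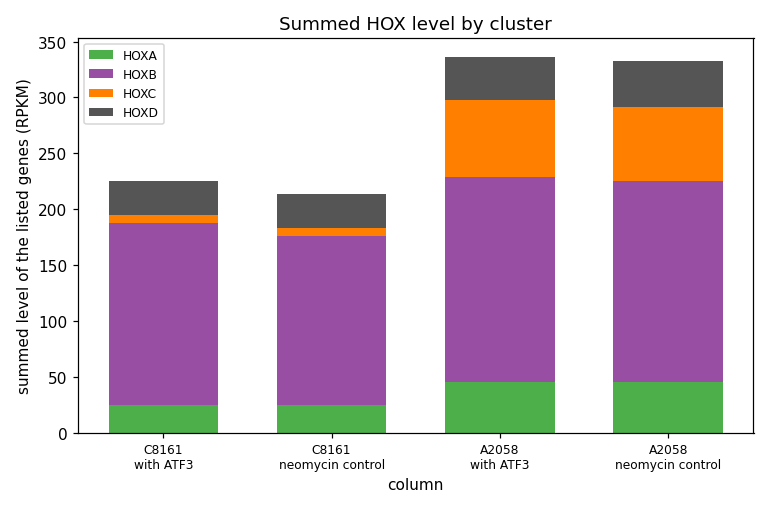
Summed RPKM of the listed HOX genes in each column, stacked by cluster (HOXA 11 genes, the others 9 each). HOXB makes up most of each bar, and the HOXC segment is 7.20 and 6.63 RPKM in the C8161 bars with ATF3 and control, against 69.2 and 66.7 RPKM in the A2058 bars with ATF3 and control.

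Position along the clusters separated the lines as well. Paralog groups 1 to 3 summed to 72.4 RPKM in the C8161 control against 49.6 RPKM in the A2058 control, which rests on HOXB2. Groups 4 to 8 summed to 111.2 RPKM in the C8161 control against 153.1 RPKM in the A2058 control. Groups 9 to 13, the posterior genes, summed to 30.3 RPKM in the C8161 control against 130.0 RPKM in the A2058 control, 4.30-fold higher in A2058. By cluster, these control sums were higher in A2058 by 103.6-fold in HOXC, 4.15-fold in HOXB, 2.67-fold in HOXA and 2.10-fold in HOXD. HOXC holds no gene of groups 1 to 3, so position and cluster are not separate here. In the columns with ATF3 the posterior sums were 30.9 RPKM in C8161 and 130.6 RPKM in A2058. The gap was wide at the far end. Group 11 summed to 0.32 RPKM in the C8161 control against 17.9 RPKM in the A2058 control, group 12 to 0.02 against 4.75 RPKM, and group 13 to 2.42 against 30.3 RPKM. Of group 13 in C8161, HOXD13 alone was at 1 RPKM or more.

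Within HOXA (chromosome 7, GRCh38, minus strand), HOXA2, HOXA3, HOXA5 and HOXA6 were near each other in both lines. HOXA2, which patterns the hindbrain and the branchial arches, was at 1.25 RPKM with ATF3 and 1.01 RPKM in the control of C8161, against 1.05 RPKM with ATF3 and 1.23 RPKM in the control of A2058. HOXA3, required in the mouse for thymus and parathyroid, was at 3.44 RPKM with ATF3 and 3.37 RPKM in the control of C8161, against 4.36 RPKM with ATF3 and 4.73 RPKM in the control of A2058. The values of HOXA2 overlapped between the lines, and those of HOXA3 were higher in A2058. HOXA5, which acts in lung development, was at 2.76 RPKM with ATF3 and 2.82 RPKM in the control of C8161, against 2.95 RPKM with ATF3 and 3.0 RPKM in the control of A2058. HOXA6 was at 1.32 RPKM with ATF3 and 1.48 RPKM in the control of C8161, against 1.92 RPKM with ATF3 and 1.63 RPKM in the control of A2058.

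HOXA4, HOXA7 and HOXA11 broke this likeness, in different directions. HOXA4 was at 0.08 RPKM with ATF3 and 0.11 RPKM in the control of C8161, against 4.56 RPKM with ATF3 and 4.86 RPKM in the control of A2058. HOXA7, further toward the posterior end, had the reverse order, with 4.47 RPKM with ATF3 and 4.09 RPKM in the control of C8161, against 0.16 RPKM with ATF3 and 0.30 RPKM in the control of A2058. The A2058 values of HOXA7 rest on about 6 reads with ATF3 and 11 in the control. HOXA9, an oncogene of acute leukaemia when overexpressed, stayed under 0.4 RPKM in all columns, at 0.18 RPKM with ATF3 and 0.29 RPKM in the control of C8161 and 0.35 RPKM with ATF3 and 0.32 RPKM in the control of A2058. HOXA10, which acts in the uterus, was the most abundant HOXA gene in all 4 columns, at 9.42 RPKM with ATF3 and 9.49 RPKM in the control of C8161, against 14.3 RPKM with ATF3 and 14.04 RPKM in the control of A2058. HOXA11, its neighbour and also a gene of uterus and forearm development, was at 0.01 RPKM with ATF3 and 0.03 RPKM in the control of C8161, against 9.10 RPKM with ATF3 and 9.30 RPKM in the control of A2058. HOXA13, mutated in hand-foot-genital syndrome, was at 0.12 RPKM with ATF3 and 0.19 RPKM in the control of C8161, against 2.98 RPKM with ATF3 and 3.08 RPKM in the control of A2058. The order of detection along the posterior part of HOXA was thus interrupted in both lines by low HOXA9.

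HOXA7, HOXA10 and HOXA11 lie close together and show the 3 patterns (higher in C8161, present in both lines, present in A2058), so the 250 bases before their starts are given, 5′ to 3′ in the direction of the gene, from RefSeq (GRCh38.p14, minus strand), with each CpG in capitals. They are chr7:27156676-27156925, chr7:27179862-27180111 and chr7:27185233-27185482.
HOXA7: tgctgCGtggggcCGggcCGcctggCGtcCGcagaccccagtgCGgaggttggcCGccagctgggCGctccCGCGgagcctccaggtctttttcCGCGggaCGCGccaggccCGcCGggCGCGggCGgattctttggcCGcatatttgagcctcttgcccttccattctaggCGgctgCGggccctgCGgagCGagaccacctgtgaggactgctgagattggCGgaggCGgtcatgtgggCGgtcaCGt
HOXA10: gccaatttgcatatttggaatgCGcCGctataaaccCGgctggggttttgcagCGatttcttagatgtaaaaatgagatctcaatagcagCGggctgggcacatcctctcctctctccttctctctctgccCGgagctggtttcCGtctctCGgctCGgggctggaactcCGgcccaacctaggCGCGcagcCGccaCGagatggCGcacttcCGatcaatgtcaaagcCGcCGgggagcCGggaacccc
HOXA11: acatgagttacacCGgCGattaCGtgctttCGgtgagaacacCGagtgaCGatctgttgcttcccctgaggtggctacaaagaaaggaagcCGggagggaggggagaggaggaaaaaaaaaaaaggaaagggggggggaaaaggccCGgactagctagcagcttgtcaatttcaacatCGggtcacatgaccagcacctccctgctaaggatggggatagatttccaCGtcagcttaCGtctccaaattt
These hold 28 CpG in HOXA7, 19 in HOXA10 and 11 in HOXA11, at GC contents of 70.8%, 58.8% and 51.6%.

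Promoter windows of 300 bases (250 before the start and 50 after) matched 19 HOX genes, and HOXC4 and HOXC5 share 1 window. The matched genes are otherwise of HOXA and HOXD, so no HOXB gene and none of HOXC6 to HOXC13 enters these counts. The median was 23 CpG in HOX promoters, with 4 in HOXD4 and 44 in HOXA13, beside 22 over 15843 protein-coding promoters. The 5 matched genes detected in the A2058 control alone had a median of 27 CpG (13 to 44), and the 10 detected in both controls had a median of 18 (4 to 34). On either strand, the full ATF/CREB site TGACGTCA occurred in 0 of 19 HOX windows, beside 2.59% of all promoters, and the AP-1 site TGANTCA in 0 of 19, beside 5.75%. The short ATF/CREB site TGACG, which is contained in the full one, occurred in 6 of 19 beside 29.5%, among them HOXA11. The homeodomain core TAAT occurred in 14 of 19 beside 42% and the box CCAAT in 16 of 19 beside 36.4%. The window shared by HOXC4 and HOXC5 is counted for each of them in both. Median GC content was 58% in the HOX windows beside 62.67% over all promoters, and its part in these shares was not tested. TATAAA occurred in 4 of 19 beside 9.63%, and TGATNNAT, a form of the site bound by HOX with PBX that can overlap TAAT, in 2 of 19 beside 4.99%. Such matches describe letters in these windows and no binding.

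In HOXB (chromosome 17, minus strand), the 8 genes from HOXB2 to HOXB9 were at 1 RPKM or more in all 4 columns. HOXB2, which acts in hindbrain patterning, was the most abundant HOX gene of C8161, at 60.3 RPKM with ATF3 and 55.5 RPKM in the control, against 30.7 RPKM with ATF3 and 30.5 RPKM in the control of A2058. HOXB3, its neighbour, was at 8.28 RPKM with ATF3 and 7.48 RPKM in the control of C8161, against 5.99 RPKM with ATF3 and 5.58 RPKM in the control of A2058. HOXB4, known for expanding blood stem cells when overexpressed, was at 21.7 RPKM with ATF3 and 21.4 RPKM in the control of C8161, against 10.6 RPKM with ATF3 and 10.7 RPKM in the control of A2058. All of the first 3 HOXB genes were higher in C8161. HOXB5 was at 6.38 RPKM with ATF3 and 5.59 RPKM in the control of C8161, against 8.67 RPKM with ATF3 and 8.56 RPKM in the control of A2058. HOXB6 was at 30.6 RPKM with ATF3 and 28.8 RPKM in the control of C8161, against 29.8 RPKM with ATF3 and 30.1 RPKM in the control of A2058. HOXB7, reported in melanoma as an activator of FGF2, was at 23.0 RPKM with ATF3 and 21.3 RPKM in the control of C8161, against 30.8 RPKM with ATF3 and 31.3 RPKM in the control of A2058. HOXB6 was therefore nearly level between the lines, and HOXB7 higher in A2058.

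Toward the posterior end of HOXB the lines parted. HOXB8, whose overexpression blocks differentiation of myeloid progenitors, was at 1.98 RPKM with ATF3 and 1.49 RPKM in the control of C8161, against 21.6 RPKM with ATF3 and 20.2 RPKM in the control of A2058. HOXB9 was at 10.4 RPKM with ATF3 and 10.3 RPKM in the control of C8161, against 33.9 RPKM with ATF3 and 31.1 RPKM in the control of A2058. In C8161, HOXB8 was thus low between 2 abundant neighbours, HOXB7 and HOXB9. HOXB13, a prostate lineage factor that lies apart from the rest of the cluster, was listed at 0 with ATF3 and at 0.01 RPKM in the control of C8161, against 11.6 RPKM with ATF3 and 11.8 RPKM in the control of A2058. PRAC2, another gene inside the HOXB span, was listed at 0 in both C8161 columns, against 2.91 RPKM with ATF3 and 1.97 RPKM in the control of A2058.

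Every HOXC gene (chromosome 12, 53938831 to 54056030, plus strand) was lower in C8161 than in A2058, in the controls and with ATF3, although 1 of the 9 was higher in the C8161 control after quantile normalization. HOXC4 was at 1.57 RPKM with ATF3 and 1.32 RPKM in the control of C8161, against 10.96 RPKM with ATF3 and 10.5 RPKM in the control of A2058. HOXC5 was at 0.89 RPKM with ATF3 and 1.02 RPKM in the control of C8161, against 2.03 RPKM with ATF3 and 1.82 RPKM in the control of A2058. HOXC6, used in brachial motor neurons of the mouse, was the most abundant HOXC gene of C8161, at 2.85 RPKM with ATF3 and 2.64 RPKM in the control, against 10.7 RPKM with ATF3 and 9.72 RPKM in the control of A2058. HOXC5 had the smallest gap of the 9. HOXC8, another brachial gene, was at 1.5 RPKM with ATF3 and 1.26 RPKM in the control of C8161, against 4.75 RPKM with ATF3 and 4.22 RPKM in the control of A2058.

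From HOXC9 onward C8161 had almost no signal. HOXC9, a thoracic determinant in mouse motor neurons, was at 0.07 RPKM with ATF3 and 0.06 RPKM in the control of C8161, against 6.07 RPKM with ATF3 and 5.09 RPKM in the control of A2058. HOXC10, which is used in the lumbar cord of the mouse, was at 0.24 RPKM with ATF3 and 0.23 RPKM in the control of C8161, against 18.5 RPKM with ATF3 and 19.3 RPKM in the control of A2058. HOXC11 was at 0.06 RPKM with ATF3 and 0.09 RPKM in the control of C8161, against 5.95 RPKM with ATF3 and 5.40 RPKM in the control of A2058. HOXC10 was the most abundant HOXC gene of A2058. HOXC12 was listed at 0 in both C8161 columns, against 4.28 RPKM with ATF3 and 4.26 RPKM in the control of A2058. HOXC13, a regulator of hair and nail keratins, was at 0.02 RPKM with ATF3 and 0.01 RPKM in the control of C8161, against 6.03 RPKM with ATF3 and 6.40 RPKM in the control of A2058. The 5 genes together came to 0.39 RPKM in each C8161 column, against 40.8 RPKM with ATF3 and 40.4 RPKM in the control of A2058.

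HOXD (chromosome 2, 176087487 to 176190907, plus strand) was the cluster with the smallest contrast in its middle. HOXD4, HOXD8 and HOXD9 were its abundant genes in C8161. HOXD4 was at 9.35 RPKM with ATF3 and 10.4 RPKM in the control of C8161, against 11.6 RPKM with ATF3 and 11.4 RPKM in the control of A2058. HOXD8 was at 8.05 RPKM with ATF3 and 7.52 RPKM in the control of C8161, against 5.05 RPKM with ATF3 and 4.82 RPKM in the control of A2058. HOXD9 was at 7.80 RPKM with ATF3 and 7.10 RPKM in the control of C8161, against 5.80 RPKM with ATF3 and 6.26 RPKM in the control of A2058. HOXD8 and HOXD9 were thus somewhat higher in C8161. HOXD1, the anterior end of the cluster, was at 1.05 RPKM with ATF3 and 1.32 RPKM in the control of C8161, against 0.58 RPKM with ATF3 and 0.55 RPKM in the control of A2058. HOXD3, linked to integrin expression in angiogenic endothelium, was at 2.01 RPKM with ATF3 and 2.10 RPKM in the control of C8161, against 3.56 RPKM with ATF3 and 4.01 RPKM in the control of A2058.

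The HOXD genes beyond HOXD9 act in limb and digit formation, and HOXD10 to HOXD12 were low in C8161. HOXD10 had 0.01 RPKM in C8161 with ATF3 and 0 listed in the C8161 control, against 0.86 RPKM with ATF3 and 1.06 RPKM in the control of A2058. HOXD11 was at 0.34 RPKM with ATF3 and 0.20 RPKM in the control of C8161, against 2.78 RPKM with ATF3 and 3.15 RPKM in the control of A2058. HOXD12 stayed under 0.5 RPKM in all columns, at 0.09 RPKM with ATF3 and 0.02 RPKM in the control of C8161 and 0.35 RPKM with ATF3 and 0.49 RPKM in the control of A2058. HOXD13, mutated in synpolydactyly, was at 2.21 RPKM in each C8161 column, against 7.78 RPKM with ATF3 and 9.02 RPKM in the control of A2058. In C8161 it was thus detected beyond a stretch of 3 low genes, HOXD10 to HOXD12.

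Between the lines, the log2 ratio of (RPKM + 1) in C8161 over A2058 was taken for genes at 1 RPKM or more in 1 of the 2 columns compared. Adding 1 understates differences of low genes. In the neomycin controls, 17 of 36 HOX genes had a log2 ratio of −1 or less, beside 20.7% of all genes compared, and 1 (HOXA7) had a ratio of 1 or more, beside 9.36%. In the columns with ATF3, which are other columns of the same lines, these were 16 of 35 beside 21.4%, and 1 (HOXA7) beside 9.92%. The median log2 ratio of the HOX genes was −0.62 in the controls and −0.68 with ATF3, beside −0.19 and −0.18 over all genes. Quantile normalization, which moved the median of all genes in the controls to 0.08, gave a HOX median of −0.29 there.

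By cluster, the median log2 ratio of the controls was −0.46 for HOXA, −0.54 for HOXB, −2.40 for HOXC and −0.41 for HOXD. After quantile normalization it was −0.03 for HOXA, −0.24 for HOXB, −2.20 for HOXC and 0.10 for HOXD, so the sign of HOXD turned and HOXA came near 0. With a minimum of 5 RPKM, the HOXD median was 0.02 over 4 genes and the HOXA median −1.92 over 2. With ATF3 the HOXD median was −0.28, 0.04 with that minimum and 0.07 after the GC and length correction. The lowest ratios in the controls were those of HOXC10 (−4.04), HOXB13 (−3.67), HOXA11 (−3.32), HOXB8 (−3.09) and HOXC13 (−2.87). HOXA7 was the highest, at 1.97 in the controls and 2.24 with ATF3, followed by HOXB4 at 0.93 in the controls and 0.97 with ATF3.

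The lines differ widely across the genome, and beside that spread single HOX genes did not stand out. Each gene was given a level band, which spans the middle 95% of ratios among 500 genes of the most similar mean level. Beyond a ratio of 1 and outside its band lay 0 of 36 HOX genes above and 0 below in the controls, beside 2.56% and 2.22% of all genes. With ATF3, 0 of 35 lay above, beside 2.59%, and 1 below, beside 2.28%. That gene was HOXB13, whose ratio of −3.659 narrowly passed a band edge of −3.653. A gene near 0 in C8161 can reach its band edge only if it is high in A2058, so the band limits what such genes can show.

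**Figure D3:**
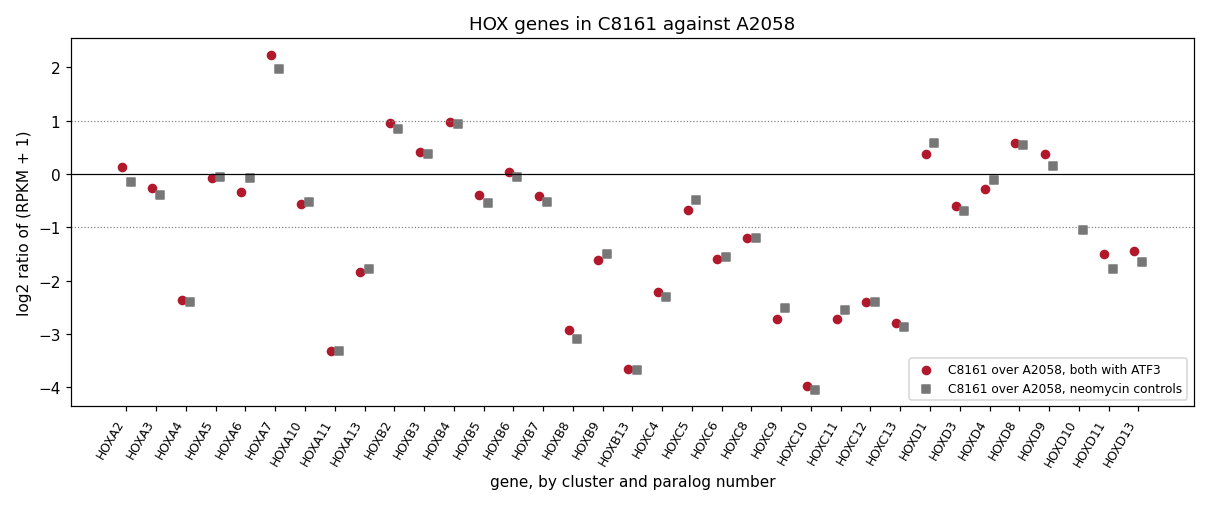
Log2 ratio of (RPKM + 1) in C8161 over A2058 for the HOX genes reported singly, with circles for the columns with ATF3 and squares for the neomycin controls, and dotted lines at −1 and 1. HOXC4, HOXC6 and HOXC8 to HOXC13 lie below −1 in both pairs, and HOXA7 alone lies above 1.

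With ATF3, the HOX genes of C8161 kept close to their control levels. Of 25 HOX genes compared, 16 had a log2 ratio above 0 and 8 below, with a median of 0.08 beside 0.01 over 10941 genes. The range ran from −0.18 for HOXD1 (1.05 RPKM with ATF3 against 1.32 RPKM in the control) to 0.26 for HOXB8 (1.98 against 1.49 RPKM). HOXB8 was the 1 HOX gene above its level band (beside 2.63% of all genes), with a ratio of 0.259 against an edge of 0.256, and inside the band when this was made from 200 genes. Below the band lay 0 of 25, beside 2.6%.

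The HOXB genes of C8161 leaned one way. All 8 HOXB genes compared had a ratio above 0 (from 0.01 for HOXB9 to 0.26 for HOXB8, median 0.11), and the cluster sum was 1.07-fold higher with ATF3. All 8 were also above 0 after scaling to a common sum, quantile normalization, median-ratio scaling and correction for GC content and transcript length. Over all genes 52.0% were above 0, and the HOXB genes lie side by side in 1 locus, so they are not independent of each other. In HOXA, 3 of 7 were above 0, in HOXC 3 of 4 and in HOXD 2 of 6. After scaling to a common sum 4 of 7 HOXA genes and 3 of 6 HOXD genes were above 0, and after the GC and length correction 5 of 7 and 4 of 6, so their direction depended on those steps.

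In A2058, where ATF3 was at a lower level, 17 of 34 HOX genes had a ratio above 0 and 17 below, with a median of −0.0047 beside 0.0039 over all genes. Above their band lay 0 of 34, beside 2.55%, and below it 0 of 34, beside 2.63%. The range ran from −0.19 for HOXD13 (7.78 RPKM with ATF3 against 9.02 RPKM in the control) to 0.22 for HOXC9 (6.07 against 5.09 RPKM). HOXD13 lay just inside its band, whose lower edge was −0.21, and below the band after the GC and length correction. Over all genes 51.3% were above 0. HOXC genes were mostly higher with ATF3, 7 of 9 (6 of 9 after scaling to a common sum or after the GC and length correction). HOXD genes were mostly lower, 5 of 7, but with a minimum of 5 RPKM 2 of 4 were above 0. Of the HOXB genes, 5 of 9 were above 0, but 4 of 9 after scaling to a common sum or quantile normalization and 3 of 9 after the GC and length correction, so no direction held.

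**Figure D4:**
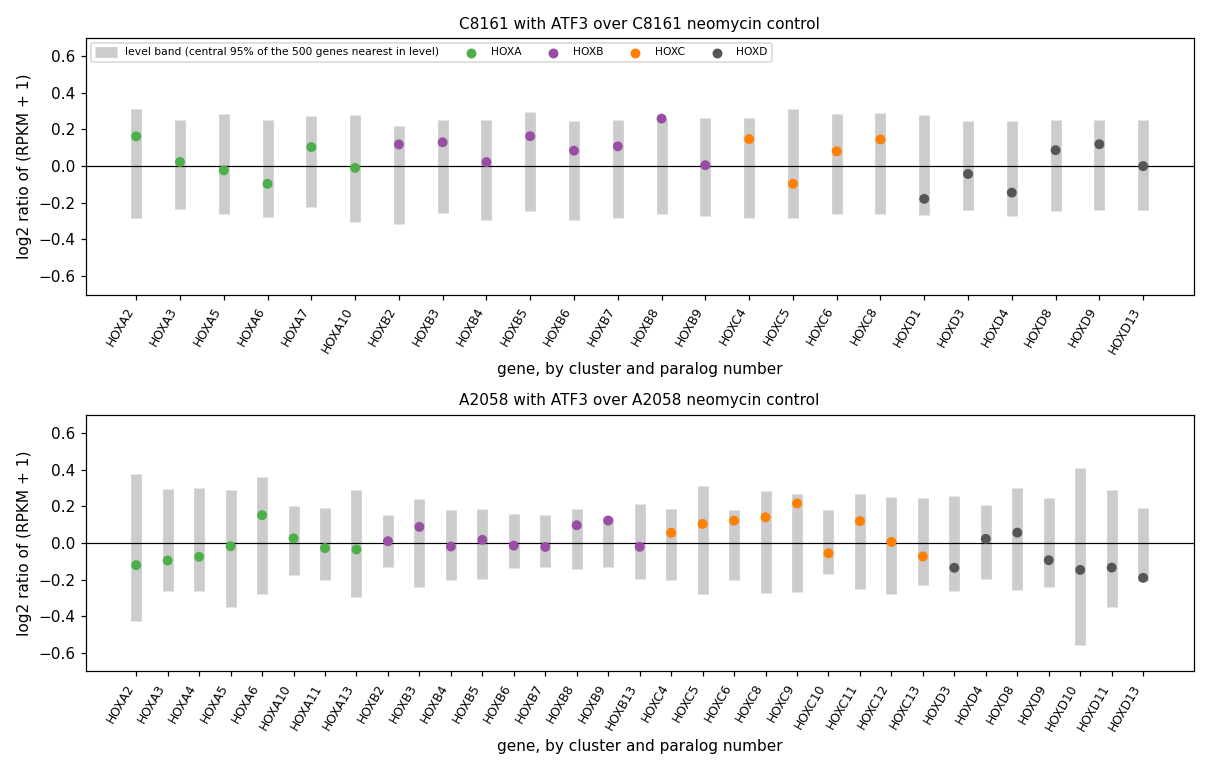
Log2 ratio of (RPKM + 1) with ATF3 over the neomycin control for the HOX genes reported singly, in C8161 (upper panel) and A2058 (lower panel), coloured by cluster, with grey bars for the level band of each gene. In C8161 all 8 HOXB points lie above 0 and HOXB8 touches the top of its bar, while no A2058 point leaves its bar.

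For 23 HOX genes compared in both lines, the ATF3 ratio in C8161 minus that in A2058 had a median of 0.04 and was above 0 for 15, beside a median of 0.0019 and 5225 above 0 among 10331 genes. It was 0.28 for HOXA2 and −0.25 for HOXA6, both genes near 1 to 2 RPKM and with only about 29 to 44 reads in each A2058 library. This difference was not tested. The HOX genes compared in C8161 had a median GC content of 54.5%, beside 47.9% over all genes compared. With GC content and length corrected for, the C8161 median was 0.09, with 20 of 25 above 0. Over all genes it was 0.0065, with 52.6% above 0. The median difference between the lines was then 0.12, with 17 of 23 above 0. After scaling to a common sum that difference was 0.08, with 18 of 24 above 0. That scaling also moved the ATF3 medians of all genes, to 0.032 in C8161 and −0.012 in A2058. The difference between lines over all genes was not computed under these settings.

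Overlapping transcription limits several values, since the strand setting of the counting is not given in the sources used here. By GENCODE exons, 62.5% of HOXA7 lies opposite exons of HOXA-AS3, 58.1% of HOXD1 opposite exons of antisense genes that include HAGLR, 39.3% of HOXA6 opposite HOXA-AS3 and 31.1% of HOXA11 opposite HOXA11-AS. Sense and antisense reads of these genes cannot be told apart here. On the same strand, HOXC4 shares 17.8% of its exon bases, HOXC5 14.4% and HOXC6 15.7% with another HOX gene. With all same-strand genes, among them AC012531.2, HOXC5 shares 43.4%. HOXA4 shares 31% with AC004080.6, and 16.3% of it lies opposite HOXA-AS2 and HOXA-AS3. HOXD4 shares 80.5% and HOXD3 62.2% with the unnamed gene AC009336.2. HOXB8, HOXB13, HOXC11 and HOXC12 share no exon bases with another gene on either strand.

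Genes next to HOXC were detected in both lines. CALCOCO1, the nearest protein-coding gene beyond the HOXC13 end, was at 11.2 RPKM with ATF3 and 8.93 RPKM in the control of C8161, against 6.37 RPKM with ATF3 and 6.03 RPKM in the control of A2058. SMUG1, a uracil DNA glycosylase beyond the HOXC4 end, was at 14.4 RPKM with ATF3 and 16.3 RPKM in the control of C8161, against 36.0 RPKM with ATF3 and 34.6 RPKM in the control of A2058. CBX5, the heterochromatin protein HP1 alpha beyond SMUG1, was higher in C8161, at 20.9 RPKM with ATF3 and 19.5 RPKM in the control, against 10.3 RPKM with ATF3 and 9.73 RPKM in the control of A2058. All 3 were thus above 5 RPKM in every column, unlike HOXC9 to HOXC13. EVX1 and EVX2, homeobox genes at the posterior ends of HOXA and HOXD, were at 0.03 RPKM or less in every column. MTX2 beyond HOXD1 was at 24.9 RPKM with ATF3 and 24.5 RPKM in the control of C8161, against 23.7 RPKM with ATF3 and 23.3 RPKM in the control of A2058.

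HOX proteins bind DNA together with homeodomain partners of the TALE class, the PBX, MEIS and PKNOX proteins. Of 7 TALE genes compared in the controls, 4 had a log2 ratio of −1 or less and 1 of 1 or more, with a median of −1.24. Over all genes compared these shares were 20.7% and 9.36% and the median −0.19, and the same values are the background for each list below. MEIS3 was at 0.06 RPKM in the C8161 control against 12.5 RPKM in the A2058 control, PKNOX2 at 0.04 against 7.94 RPKM, and PBX2 at 15.6 against 38.2 RPKM. With ATF3, 0 of the 4 TALE genes compared in C8161 lay outside the band, beside 2.63% of all genes above and 2.6% below. In A2058 these were 0 of 8, beside 2.55% above and 2.63% below.

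The Polycomb, MLL and trithorax lists had shares at −1 or less near that of all genes. Of 18 genes of Polycomb repressive complex 1, which ubiquitinates histone H2A and compacts chromatin, 3 had a ratio of −1 or less, beside 20.7% of all genes, and 0 of 1 or more, beside 9.36% (median −0.40). CBX2 and CBX8, which encode chromodomain subunits, were among them. CBX2 was at 2.01 RPKM in the C8161 control against 25.2 RPKM in the A2058 control, and CBX8 at 3.96 against 24.3 RPKM. Of 10 genes of Polycomb repressive complex 2, which methylates histone H3 at lysine 27, 2 had a ratio of −1 or less, beside 20.7% of all genes (median −0.23, beside −0.19). Its catalytic subunit EZH2 was at 9.81 RPKM in the C8161 control against 28.1 RPKM in the A2058 control, and its cofactor JARID2 at 5.19 against 16.9 RPKM. AEBP2, another accessory subunit, was at 15.6 RPKM in the C8161 control against 9.88 RPKM in the A2058 control.

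Among 14 MLL and trithorax genes, 3 had a ratio of −1 or less, beside 20.7% of all genes, and 0 of 1 or more, beside 9.36% (median −0.39). ASH2L, a core subunit of the MLL complexes, was at 10.9 RPKM in the C8161 control against 28.2 RPKM in the A2058 control, the methyltransferase KMT2C at 1.29 against 4.53 RPKM and the H3K27 demethylase KDM6B at 2.67 against 6.91 RPKM. With ATF3 in C8161, PSIP1, which tethers MLL complexes to chromatin, lay above its band at 48.7 RPKM against 37.5 RPKM in the control. So did PHC3 (10.2 RPKM with ATF3 against 8.03 RPKM) and PCGF2 (23.1 RPKM with ATF3 against 18.9 RPKM), both of Polycomb repressive complex 1. These are 1 of 14 and 2 of 18 genes, beside 2.63% of all genes above the band. Of 8 genes of CTCF and cohesin, which fold the clusters, the median ratio of the controls was −0.08. STAG1 was at 23.2 RPKM in the C8161 control against 7.77 RPKM in the A2058 control, NIPBL at 2.93 against 8.40 RPKM and SMC3 at 10.6 against 23.2 RPKM. With ATF3 in A2058, NIPBL (7.0 RPKM against 8.40 RPKM in the control), PHF19 (55.2 against 61.3 RPKM) and CBX6 (30.8 against 33.9 RPKM) lay below their bands, beside 2.63% of all genes, and DLX6 (4.64 against 3.52 RPKM) above, beside 2.55%. PHF19 and CBX6, both Polycomb genes, were picked after their values were seen.

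**Figure D5:**
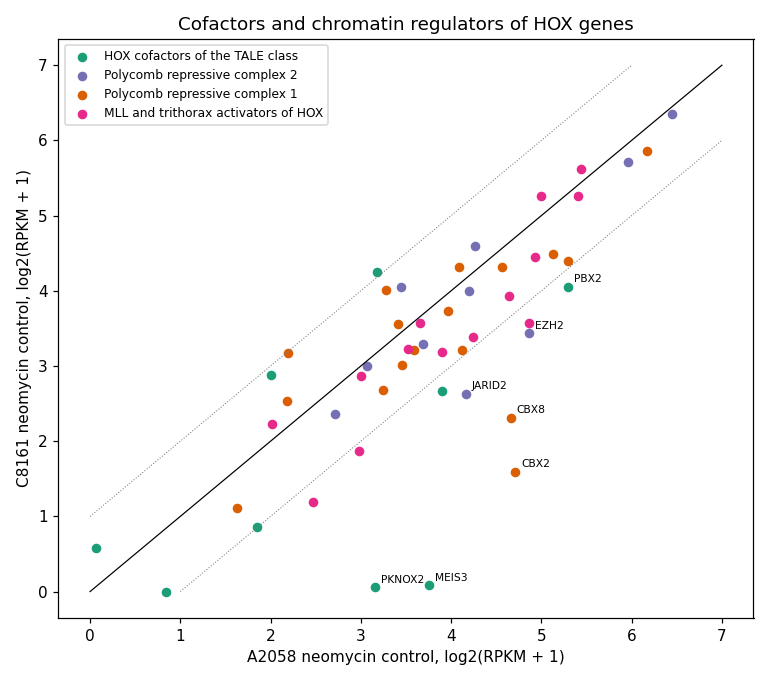
Level of HOX cofactors, Polycomb genes and MLL or trithorax genes, log2(RPKM + 1) in the C8161 control (vertical) against the A2058 control (horizontal), 1 point per gene, with a solid line for equal levels and dotted lines for a log2 ratio of 1 either way. MEIS3 and PKNOX2 lie near 0 in C8161, and CBX2 and CBX8 lie below the lower dotted line.

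Retinoic acid activates anterior HOX genes in embryos. Of 12 retinoic acid genes compared in the controls, 4 had a ratio of 1 or more, beside 9.36% of all genes, and 4 of −1 or less, beside 20.7% (median −0.15). RXRG, a retinoid X receptor, was listed at 0 in the C8161 control against 22.7 RPKM in the A2058 control, the binding protein CRABP2 was at 1.0 against 19.3 RPKM, and CRABP1 was listed at 0 against 5.95 RPKM. In the other direction, ALDH1A3, a retinaldehyde dehydrogenase, was at 77.6 RPKM in the C8161 control against 11.2 RPKM in the A2058 control, above its band; it was picked after its values were seen. With ATF3, 0 of the 10 genes of this list compared in each line left the band. Over all genes, 2.63% lay above and 2.6% below in C8161, and 2.55% and 2.63% in A2058. Among upstream regulators, GDF11, which sets posterior HOX limits in the mouse, was the 1 gene compared, at 6.19 RPKM in the C8161 control against 24.0 RPKM in the A2058 control. In the list of ParaHox and cluster-linked homeobox genes, 6 were compared, all DLX, GBX or EN genes and no ParaHox gene. Of these 6, 5 had a ratio of −1 or less, beside 20.7% of all genes (median −1.71). DLX5 was at 0.24 RPKM in the C8161 control against 5.64 RPKM in the A2058 control, DLX6 at 0.01 against 3.52 RPKM, DLX2 at 1.0 against 5.52 RPKM and EN2 listed at 0 against 2.26 RPKM.

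Of 12 genes reported elsewhere as direct targets of HOX proteins, 8 were compared in the controls, with 3 at a ratio of 1 or more, beside 9.36% of all genes, and 4 at −1 or less, beside 20.7% (median −1.09). PLAU, the urokinase plasminogen activator, was at 414.1 RPKM in the C8161 control against 0.16 RPKM in the A2058 control. The integrin subunit gene ITGB3 was at 2.06 RPKM in the C8161 control against 41.6 RPKM in the A2058 control. CDKN1A, a cell cycle inhibitor, lay above its band with ATF3 in both lines. It was at 5.57 RPKM with ATF3 against 4.22 RPKM in the C8161 control. In A2058 it was at 18.0 RPKM with ATF3 against 14.8 RPKM in the control. This is 1 of 7 genes of the list compared in C8161, beside 2.63% of all genes above the band. In A2058 it is 1 of 6, beside 2.55%. Markers of other cell types were mostly low, and the part of those that differed was not tested. Of 6 endothelial markers, CDH5 alone passed 1 RPKM, at 18.1 RPKM with ATF3 and 8.86 RPKM in the control of C8161, against 0.05 and 0.04 RPKM in A2058 with ATF3 and control. Summed fibroblast markers came to 0.84 RPKM with ATF3 and 0.80 RPKM in the control of C8161, against 13.6 and 12.4 RPKM in A2058 with ATF3 and control, carried by LUM (7.92 and 7.67 RPKM in A2058 with ATF3 and control) and COL1A1 (4.99 and 3.97 RPKM), with DCN at 0.08 RPKM or less in every column. Of the keratinocyte markers KRT10 alone passed 1 RPKM, at 15.3 RPKM with ATF3 and 16.2 RPKM in the control of C8161, against 31.2 RPKM with ATF3 and 30.4 RPKM in the control of A2058, while KRT14 was at 0.05 RPKM or less in every column. Of the leukocyte markers LYZ alone passed it, at 2.07 RPKM with ATF3 and 1.28 RPKM in the control of A2058, while PTPRC was at 0.43 RPKM or less.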

How the data were processed

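Total RNA of 8 libraries was sequenced, and per the file headers the authors deposited 1 table of RPKM values with 2 decimals for 18478 Entrez genes. Per the submitters' processing notes, Bowtie2 and RSEM were used with build hg38; no versions, annotation, filters or strand setting are stated there. The A2058 columns hold 1 library each. The C8161 columns are the authors' combined values, and whether these are means or pooled reads is not stated, so no SD, n or test is given and the limma fit foreseen for values per library could not be run. No further value column was left unused.

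Names and coordinates came from RefSeq (GRCh38.p14) by Entrez identifier, and GC content, length and exon overlaps from GENCODE 29. Ratios were log2(RPKM + 1) differences over genes at 1 RPKM or more in 1 of the 2 columns, each beside a band of the central 95% of the 500 genes nearest in level. The band is a spread across genes, not an error; its script was tested on simulated data. Python 3.11.15, pandas 2.3.3, numpy 2.4.6 and matplotlib 3.10.9 were used. Between lines a gene counted at a ratio of 1 either way and outside the band; the count at a ratio of 1 alone, and the motifs other than TGACGTCA and TGANTCA, were added after the data were seen. Homeodomain sequences were not analysed here.

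The HOX genes and all companion lists were chosen with earlier results of these data known. Named were ATF3, every HOX gene at 1 RPKM or more in 1 column, HOX genes outside a band, up to 3 genes per companion list with the largest ratio between the controls (ties kept), list genes outside the band with ATF3 in C8161 at a mean of 2 RPKM, and cluster neighbours. A few genes that this rule names are not reported here singly and stay in counts and sums. HOXA9, HOXD12, PRAC2, ALDH1A3, PHF19, CBX6, the CDH5 marker and other marker genes were named beyond that rule. Alternatives were other pseudocounts, minimum levels, scalings, band sizes and removal of GC and length trends in 20 bins.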

Additional observations from a re-analysis of the deposited data

How the results depend on the processing

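No paired analysis was possible because the C8161 columns combine the numbered libraries and A2058 has 1 library per group; for the same reason a replicate block, leaving out a library and a limma fit were not run. No called value reversed; the HOXD median, which is no call, changed sign as given above. Of the alternative values, 210 main values and 282 values of single genes stayed close, and 36 and 27 moved. Most single-gene moves came with a pseudocount of 0.1, where ratios of genes near 0 grow by construction. With a pseudocount of 0.1, 2 HOX genes were at 1 or more between lines in the controls and 2 with ATF3, 1 was at −1 or less and below its band in the controls, and the median with ATF3 was −1.11; with 0.5, 2 were at 1 or more with ATF3. Without a minimum, the C8161 median was 0.014, 14 genes were below 0 there, and 24 were above 0 in the difference between lines. With a minimum of 5 RPKM, which leaves fewer genes, the medians between lines were −1.50 in the controls and −1.45 with ATF3, 11 genes were at −1 or less in the controls, 0 at 1 or more in either pair, and 0 below the band with ATF3; in C8161 9 were above 0, 2 below and 0 above the band, in A2058 9 were below 0, and 8 were above 0 in the difference. At 5 RPKM there were 11 HOX genes in C8161 with ATF3, 11 in the C8161 control, 21 in A2058 with ATF3 and 20 in the A2058 control. At 1 or more with ATF3 there were 2 genes after scaling to a common sum, 3 after quantile normalization and 3 with median-ratio factors. Quantile normalization gave medians of −0.29 in the controls and −0.34 with ATF3, and 2 genes at 1 or more in the controls. Removal of GC and length trends gave 2 and 4 genes at 1 or more in the controls and with ATF3, 0 below the band with ATF3, 5 below 0 in C8161, 1 below the band in A2058 and a median difference of 0.12. A band of 200 genes left 0 above it in C8161. Apart from what the construction of a setting shows, the cause was not tested. Depth limits HOXA7, HOXA9, HOXD1 and HOXD12 in A2058, with about 6 to 20 reads each. HOXA2, HOXA6 and HOXD10 were also shallow there, with about 29 to 44 reads each.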
